A study of Mus musculus with 39 samples.

Results

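Histone RNAs were followed through sucrose gradients of mouse liver, as 75 genes whose symbols mark them as histones and that are measured in both gradients, out of 13230 genes measured in both. Membership came from the symbol and from being listed in both gradient tables, which hold genes over 1 TPM in at least 1 fraction, and used no comparison between fractions. Of the 75, 65 carry the symbols of the clustered, replication-type genes (Hist1 to Hist4) and 10 those of replacement histones (H1f0, H1fx, H2afj, H2afv, H2afx, H2afy, H2afy2, H2afz, H3f3a and H3f3b). The livers came from wild-type FVB female mice whose age is not given in the sources used here, and no group received a treatment. Tissue was homogenized without detergent, a 5000 x g spin of 10 min took out nuclei, and what was left was layered on a continuous 10 to 50% sucrose gradient of 11 ml, from which 24 fractions were taken after 3 h at 30000 rpm. RNA depleted of ribosomal RNA was sequenced from 39 fractions of 2 replicate gradients, 17 of gradient 1 (fractions 4 to 19 and 21) and 22 of gradient 2 (fractions 3 to 24). How many mice gave each gradient is not stated, and each fraction of a gradient is 1 library.

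Histones are the proteins around which DNA is wound: H2A, H2B, H3 and H4 form the core of the nucleosome, and H1 binds the linker. The replication-type genes are read mainly while a cell copies its DNA, and their messages end in a conserved stem-loop in place of a poly(A) tail, which the stem-loop binding protein Slbp holds during processing, translation and decay. Replacement histones, such as the variants H3.3 (H3f3a, H3f3b) and H2A.Z (H2afz, H2afv), are made throughout the cell cycle from ordinary polyadenylated messages, and in a mostly resting tissue such as adult liver they supply chromatin outside of replication. Because the libraries were depleted of ribosomal RNA and not selected for poly(A), both kinds of message could be sequenced.

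The classes were set by symbol. Because the 3′ stem-loop is typical of replication-type messages, reference sequences of some members are shown 5′ to 3′ on the RNA strand. T stands for U, and the stem-loop is in capitals. They come from GENCODE transcripts on GRCm38, the assembly also called mm10, and lie in the 3′ UTR.
Hist1h4h: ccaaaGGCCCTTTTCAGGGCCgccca
Hist1h4i: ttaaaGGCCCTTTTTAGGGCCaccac
Hist1h4j: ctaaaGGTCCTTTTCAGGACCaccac
Hist2h2aa1: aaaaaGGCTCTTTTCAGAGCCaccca
Hist1h3e: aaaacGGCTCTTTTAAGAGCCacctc
Hist1h1e: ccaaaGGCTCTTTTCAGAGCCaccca
H2afx: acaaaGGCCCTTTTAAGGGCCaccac
Those of Hist1h4h (chr13:23531453-23531478), Hist1h4i (chr13:22040961-22040986, minus strand), Hist1h4j (chr13:21735432-21735457), Hist1h3e (chr13:23561898-23561923, minus strand) and Hist1h1e (chr13:23621777-23621802, minus strand) lie in the Hist1 cluster. That of Hist2h2aa1 (chr3:96246027-96246052) lies in the Hist2 cluster, and that of H2afx at chr9:44335235-44335260.

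The motif searched was the 16-base histone stem-loop, which opens with GG, holds CTTTT and then AG in its middle part and closes with CC, with any base at the places left free, on the transcript strand and within 150 bases after the stop codon. It was found in 43 of 64 replication-type members with a reference transcript and in 1 of 10 replacement members, H2afx, the message of the H2A variant that is phosphorylated at DNA breaks. Among 20622 coding genes searched, 47 held it, or 0.228%. Of the 21 replication-type members in which it was not found, 13 have under 25 bases after the stop codon in the reference, so the window did not reach the place where it usually stands. The most common form, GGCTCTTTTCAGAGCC, was found in 26 genes, among them all 3 H1 genes with a match, whereas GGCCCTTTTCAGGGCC was found in 7 genes, all of them H4. A poly(A) signal (AATAAA or ATTAAA in the last 50 bases) was found in 9 of 10 replacement and 16 of 64 replication-type members, beside 75% of all coding genes searched. A match is a description of the reference and does not show how an RNA of these livers ended.

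Many replication-type genes are near copies of each other, and how well their reads could be told apart bears on every value of a single gene. The share of a transcript's 31-base words that other genes also hold had a median of 55.8% over the replication-type members (0.281 to 100%) and of 0% over the replacement members (highest 8.86%). Hist1h2bq and Hist1h2br were listed with the same TPM in all 39 libraries and hold 1 measurement between them. All values below are TPM, which is each RNA's length-corrected share of the transcripts of a library, so it falls when other RNAs of the fraction rise, and it keeps no record of depth. The counting error of a value is unknown here, and the only guide to precision is how far the 2 gradients differ. Library totals ran from 998099 to 999202 TPM, between 10532 and 12558 genes were over 1 TPM in a library, and all 8 hepatocyte markers were listed. Their summed level was lowest in the middle zone, at 43641, 13694 and 22813 TPM from light to dense in gradient 1 and 33322, 21355 and 39478 TPM in gradient 2, and its part in the histone shares was not tested.

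Replication-type histone RNAs were low at the top of the gradient and highest in its middle. Their summed level in gradient 1 was 1650 TPM on average in the light zone (fractions 4 to 7), 13438 TPM in the middle zone (fractions 10 to 13) and 5456 TPM in the dense zone (fractions 16 to 19). In gradient 2 the sums were 1057, 7595 and 3767 TPM. The highest sum was in fraction 11 of both gradients, where these RNAs took 1.60% of the library in gradient 1 and 0.865% in gradient 2, against 0.112% in fraction 5 of gradient 1 and 0.0654% in fraction 4 of gradient 2. Every middle library was above every light library of its gradient, with a lowest middle sum of 10261 TPM and a highest light sum of 2751 TPM in gradient 1, and of 6840 and 1921 TPM in gradient 2. The 8 most abundant genes made up 69.3% of the mean level of the class, and 5 of these 8 were H4 genes.

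**Figure D1:**
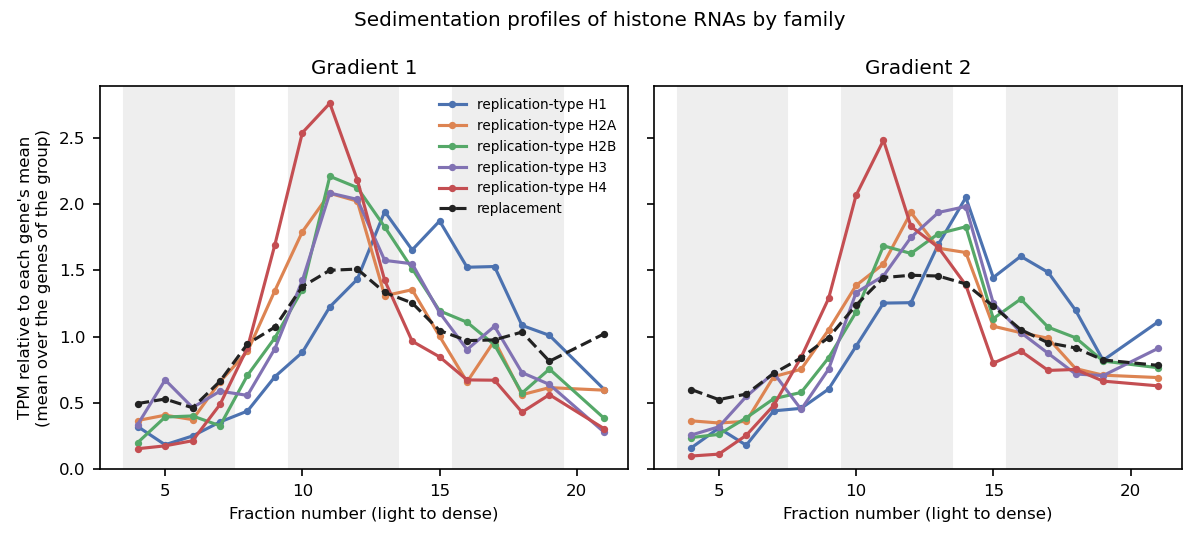
Mean sedimentation profiles of histone RNAs in the 17 fractions measured in both gradients. The x axis is the fraction number from light to dense, the y axis is TPM divided by each gene's mean over the fractions and averaged over the 13 H4, 16 H2B, 18 H2A, 12 H3 and 5 H1 replication-type genes and the 9 replacement genes, and gray bands mark the light, middle and dense zones. H4 is highest at fraction 11 in both panels, H1 at fraction 13 in gradient 1 and 14 in gradient 2, and the replacement profile is flatter.

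To compare zones, the 4 fractions of each zone were averaged per gradient on the log2(TPM + 1) scale, and the 6 zone means were fitted with limma over the 11754 genes that averaged 1 TPM or more, at a Benjamini-Hochberg adjusted p of 0.05. On this scale the changes of low genes are understated. Of the members, 73 were tested, 64 replication-type and 9 replacement, while H2afy2 (mean 0.825 TPM) and Hist3h2ba (0.0840 TPM) fell under the filter. Hist1h1t, Hist1h2aa and Hist3h2bb-ps were listed in gradient 1 only, with a median of 0 and highest values of 1.63, 1.31 and 1.93 TPM, and were not compared.

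From the light to the middle zone, 55 of 64 replication-type RNAs rose and none fell, while 23.5% of all genes tested rose and 24.1% fell. Their median change was 2.56 on the log2 scale (2.71 in gradient 1 and 2.38 in gradient 2), beside a median of 0.05 over all genes, and 62 of 64 were higher in the middle zone of both gradients (96.9%, against 48.1% of all genes). Of the replacement RNAs 7 of 9 rose, with a median of 1.06. With the gradient as a block in the fit, 58 replication-type and all 9 replacement RNAs rose and 1, Hist2h2be, fell, while 37.2% of all genes rose and 35.0% fell. Fewer replication-type RNAs rose without the light zone of gradient 2. Fewer replacement RNAs rose without the light zone of either gradient or the middle zone of gradient 1. Fewer of all genes rose in these fits too. Each leaves a zone with a lone value, so the counts are not given.

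H4 showed this most uniformly. All 13 H4 RNAs rose from the light to the middle zone, by a median of 3.30, and all 13 had their highest value between fractions 10 and 13 in both gradients, where 14.8% of all genes tested peaked in gradient 1 and 15.2% in gradient 2. The most abundant, Hist1h4h (chr13, 50.0% of its words shared), was at 53.7, 76.0, 147 and 275 TPM in the light fractions of gradient 1, at 2719, 3098, 2367 and 1419 TPM in the middle and at 708, 680, 454 and 642 TPM in the dense ones. In gradient 2 it was at 43.5, 48.0, 85.6 and 193 TPM, then 1204, 1637, 1233 and 1217 TPM, then 730, 536, 564 and 474 TPM. The 3 zones did not overlap in either gradient. Hist1h4h had the largest rise of the class into the middle zone, 4.20 ± 0.32 (SE, n = 2 gradients, limma adjusted p = 0.00119).

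The other abundant H4 RNAs followed closely. Hist1h4d went from 207 TPM in the light zone to 1880 in the middle and 567 in the dense zone of gradient 1, and from 151 to 1327 and 460 TPM in gradient 2. Hist1h4n went from 64.8 to 729 and 260 TPM, and from 48.4 to 394 and 157 TPM. Hist1h4i went from 36.5 to 369 and 126 TPM, and from 19.0 to 239 and 103 TPM. Each of the 3 was thus lowest in the light zone and highest in the middle in both gradients, and each rose from light to middle (3.38 ± 0.29, 3.39 ± 0.38 and 3.56 ± 0.36). Hist1h4c peaked 1 fraction earlier, at fraction 10 in both gradients (1646 and 953 TPM). Its zone means were 151, 1032 and 239 TPM in gradient 1 and 122, 685 and 206 TPM in gradient 2, with a rise of 2.88 ± 0.25 (limma adjusted p = 0.0012). Only 22.2% of the words of Hist1h4c and 14.7% of those of Hist1h4d are shared with other genes, and their profiles correlated between the gradients with a Pearson's R of 0.95 and 0.97 across 17 fractions.

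**Figure D2:**
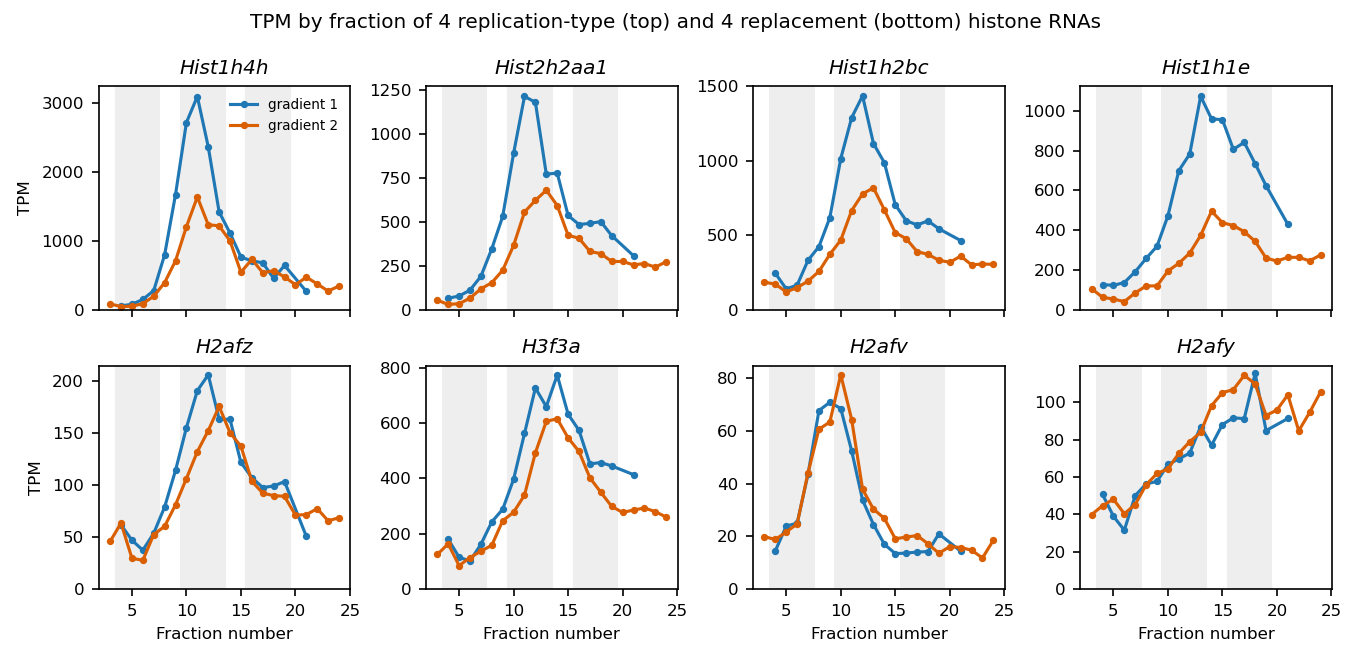
TPM by fraction of 8 histone RNAs, with fraction number on the x axis and TPM on the y axis, scaled per panel. Blue is gradient 1, orange is gradient 2, and gray bands mark the light, middle and dense zones. Hist1h4h peaks at fraction 11 in both gradients, Hist1h1e at 13 and 14, H2afv at 9 and 10 and H2afy at 18 and 17.

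H2B and H2A, which pair to form the dimers on either side of the nucleosome core, rose into the middle zone in 15 of 16 and 15 of 18 genes, with medians of 2.57 and 2.05. Hist1h2bc, the most abundant H2B RNA, was at 244, 138, 164 and 331 TPM in the light fractions of gradient 1, at 1013, 1288, 1435 and 1114 TPM in the middle and at 597, 568, 595 and 542 TPM in the dense ones. In gradient 2 it was at 170, 118, 147 and 191 TPM, then 466, 665, 777 and 817 TPM, then 476, 389, 370 and 331 TPM. Its middle and light values did not overlap in either gradient, and the rise was 2.32 ± 0.35 (limma adjusted p = 0.0043). Hist2h2aa1, the most abundant H2A RNA, went from 110 to 1014 and 474 TPM across the zones of gradient 1 and from 61.2 to 556 and 332 TPM in gradient 2, a rise of 3.32 ± 0.43 (limma adjusted p = 0.00269). Of its words, 89.6% are shared, and Hist2h2aa2, which lies near it and has no word of its own, was listed at zone means of 1.55 to 7.53 TPM only, so the division of reads between the pair is uncertain. Hist1h2bj had the smallest called rise, 1.19 ± 0.33 (limma adjusted p = 0.0298).

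H3 rose in 8 of 12 genes, with a median of 2.46, and its members agreed least between the gradients. The median Pearson's R of a gene's profile in the 2 gradients was 0.66 for H3 and 0.71 for H2A, against 0.84 for H2B, 0.91 for H4 and 0.95 for H1, across 17 fractions of which neighbors are not independent. Hist1h3e, an H3 gene, went from 52.7 to 260 and 112 TPM across the zones of gradient 1 and from 20.5 to 103 and 48.1 TPM in gradient 2. It rose by 2.42 ± 0.71 into the middle zone (limma adjusted p = 0.0346), and its words are shared to 84.4%.

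Linker histone H1 rose into the middle zone in 4 of 5 genes, with a median of 2.26, and stayed high in the dense zone. Hist1h1e was at 126, 122, 136 and 190 TPM in the light fractions of gradient 1, at 472, 700, 784 and 1075 TPM in the middle and at 807, 842, 735 and 624 TPM in the dense ones. In gradient 2 it was at 62.1, 52.7, 40.1 and 84.0 TPM, then 194, 233, 284 and 374 TPM, then 423, 392, 344 and 260 TPM. Middle and dense values overlapped in both gradients, and light values were below both. Hist1h1e rose from light to middle by 2.26 ± 0.67 (limma adjusted p = 0.0358) and from light to dense by 2.49 ± 0.67 (adjusted p = 0.0202). Hist1h1c, at 44.6, 275 and 270 TPM in gradient 1 and 16.1, 102 and 88.9 TPM in gradient 2, was likewise lowest in the light zone. For Hist1h1d, at 29.8, 170 and 227 TPM and at 6.81, 43.8 and 48.3 TPM, the large gap between gradients left the change of 2.5 ± 1.04 short of the threshold (limma adjusted p = 0.0947). With the gradient as a block it passed (0.00025), the only one of 37 alternative settings in which it did (adjusted p from 0.00025 to 0.402).

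From the light to the dense zone, 40 of 64 replication-type RNAs rose and 2 fell, while 22.3% of all genes rose and 39.6% fell. The median change was 1.54, beside -0.43 over all genes. With the block 50 rose and 2 fell, while 30.5% of all genes rose and 50.0% fell. By family, 14 of 16 H2B, 4 of 5 H1, 9 of 13 H4, 5 of 12 H3 and 8 of 18 H2A RNAs rose. Hist1h2bl rose most, from 0, 4.02, 4.42 and 1.49 TPM in the light fractions to 41.1, 44.5, 6.96 and 22.4 TPM in the dense fractions of gradient 1, and from 5.33, 4.38, 1.37 and 4.42 to 40.4, 31.6, 34.5 and 24.5 TPM in gradient 2. Dense values were above light values throughout, the change was 2.98 ± 0.30 (limma adjusted p = 0.000707), and 88.6% of its words are shared. Without the light zone of gradient 2 fewer replication-type RNAs rose, as did fewer of all genes, in a fit that leaves the light zone with a lone value.

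From the middle to the dense zone no replication-type RNA rose and 19 of 64 fell, while 4.79% of all genes rose and 22.5% fell, and the median change was -1.0 beside -0.28 over all genes. H4 accounted for 9 of the 19, with a median of -1.62 over its 13 genes, whereas none of the 5 H1 RNAs passed, with a median of -0.06. Hist1h4h went down by 1.56 ± 0.32 (change of -1.56, limma adjusted p = 0.0199), Hist1h4d by 1.59 ± 0.29 (-1.59, adjusted p = 0.0133) and Hist1h4c by 1.80 ± 0.25 (-1.80, adjusted p = 0.00775). The smallest called change was that of the H2B gene Hist1h2be, -0.79 ± 0.20 (limma adjusted p = 0.0359). This count moved with the fit. It was 48 with the gradient as a block (where 14.1% of all genes rose, 39.3% fell and H1 still had none). After quantile normalization it was 9 of 64, while 1607 of all 11754 genes fell. It was 12 without fraction 4 of gradient 1 and 11 without fraction 7 of gradient 2, where 2268 and 2423 of all genes fell. Without any zone mean fewer fell, of the class and of all genes. Those counts are not given because that zone keeps a lone value. The blocked count contains all 19 and divides into 12 H4, 14 H2A, 13 H2B and 9 H3 RNAs, where the count without the block had 9, 6, 3 and 1, and 57 of 64 RNAs were lower in the dense zone of both gradients (89.1%, against 57.7% of all genes).

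**Figure D3:**
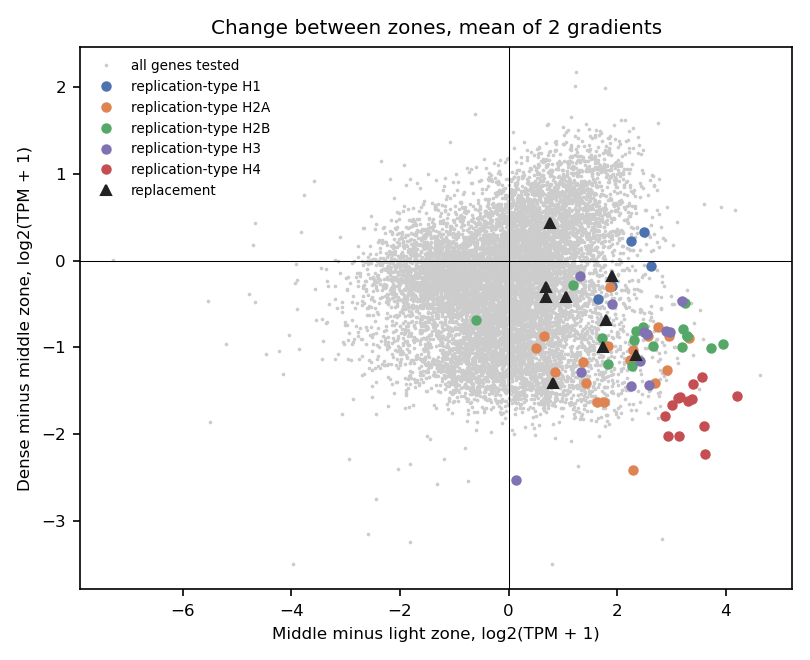
Change between zones of all 11754 genes tested (gray) and of the histone RNAs (circles for replication-type genes colored by family, triangles for replacement genes), as the mean of 2 gradients on the log2(TPM + 1) scale. The x axis is the middle minus the light zone and the y axis the dense minus the middle zone. The 13 H4 genes lie together between 2.88 and 4.20 on the x axis and between -2.24 and -1.35 on the y axis, and the median H1 gene lies at -0.06 on the y axis.

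The order of the zones could be read per gene. The middle zone was the highest of the 3 in both gradients for 58 of 64 replication-type RNAs (90.6%), for 8 of 9 replacement RNAs (88.9%) and for 24.4% of all genes tested. The single order light, dense, middle, from low to high, held in both gradients for 51 replication-type RNAs (79.7%), for 7 replacement RNAs (77.8%) and for 9.90% of all genes. By family it held for 12 of 13 H4, 15 of 16 H2B, 10 of 12 H3, 11 of 18 H2A and 3 of 5 H1 RNAs. The ratio of middle to dense had a median of 3.87 in gradient 1 and 2.65 in gradient 2 for H4, of 2.14 and 1.58 for H2B, and of 1.02 and 1.08 for H1.

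The center of sedimentation, which is the mean fraction number weighted by TPM over the 17 common fractions, describes each profile without zones. It had a median of 12.0 in gradient 1 and 12.5 in gradient 2 for H4, 12.3 and 13.0 for H2A, 12.7 and 13.1 for H3, 12.9 and 13.5 for H2B, and 14.0 and 14.0 for H1. All genes tested had a median of 11.3 in both. H4 thus had the lowest and H1 the highest median in both gradients. Neighbors in this order differed by about as much as the medians of H4, H2A, H3 and H2B moved between the gradients, so they are not resolved from each other, and single genes of H1 overlapped those of H2A, H2B and H3 in both gradients and those of H4 in gradient 2. H4 messages have the shortest coding sequence (309 bases), H1 the longest (median 657 bases), and those of H2B, H2A and H3 have medians of 378, 390 and 408 bases. Across 63 replication-type genes, the center correlated with coding length with a Pearson's R of 0.42 in gradient 1 and 0.37 in gradient 2, and of 0.18 and 0.16 across the 58 genes other than H1. The points share libraries and reads, and with the length of the reference transcript the R was 0.14 and 0.10, and -0.22 and -0.17 without H1.

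**Figure D4:**
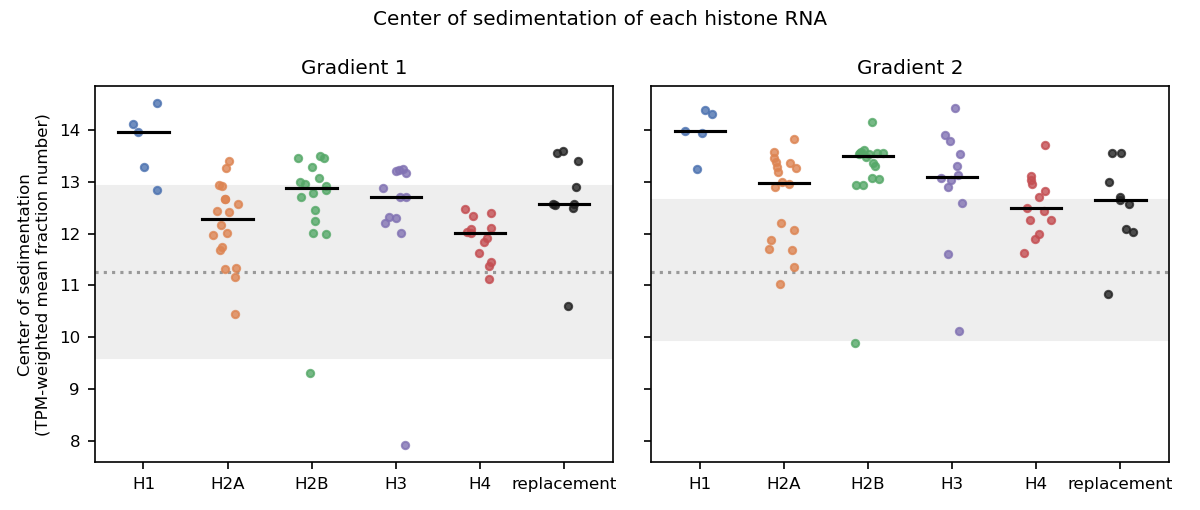
Center of sedimentation of each histone RNA, as the TPM-weighted mean fraction number (y axis), for the replication-type families and the replacement genes (x axis), with 1 panel per gradient. Points are genes, black bars are medians, the dotted line is the median of all genes tested (11.3) and the gray band spans their quartiles. H1 has the highest and H4 the lowest median of the 5 families in both panels.

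Few members went against the class. Hist2h2be, an H2B gene with a 2620-base transcript and 2.24% of its words shared, was at 4.19, 7.83, 2.48 and 1.97 TPM in the light fractions, 1.66, 2.19, 3.56 and 1.95 TPM in the middle and 1.65, 1.05, 0.295 and 0.700 TPM in the dense fractions of gradient 1. In gradient 2 it was at 5.57, 6.66, 5.04 and 3.13 TPM, then 2.12, 3.05, 3.16 and 2.65 TPM, then 2.05, 2.21, 0.942 and 1.10 TPM. It peaked at fraction 5 in both gradients and fell from the light to the dense zone by 1.28 ± 0.25 (change of -1.28, limma adjusted p = 0.00611), although its level was low throughout and light and middle values overlapped in both gradients. No stem-loop motif was found after its stop codon, and a poly(A) signal was found at its end. The same held for Hist1h4a, Hist1h2bq and Hist1h2br, which were higher in the middle than in the light zone of both gradients. The motif was found in Hist2h3c1, described next. The H3 gene Hist2h3c1 had the largest fall, -2.40 ± 0.58 (limma adjusted p = 0.0141) from light to dense and -2.53 ± 0.58 (adjusted p = 0.0265) from middle to dense, but its values jumped. It was listed at 0, 46.2, 16.3 and 26.8 TPM in the light fractions of gradient 1, 0, 0, 14.9 and 10.0 TPM in those of gradient 2, and at 0 in 7 of 8 dense fractions, and its profiles in the 2 gradients correlated with an R of only 0.12. Both genes lie in the Hist2 cluster, of which 5 of 10 genes tested rose into the middle zone, compared with 48 of 52 genes of the Hist1 cluster. The difference between the clusters was not tested.

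Members with and without the stem-loop in the reference were compared next. From light to middle, 37 of 42 tested replication-type RNAs with the motif rose, with a median of 2.68, and 18 of 22 without it or without a reference transcript, with a median of 2.30. The members were also split by shared sequence. Of the genes with at most 50% of their words shared, 23 of 26 rose, with a median of 2.64, and of those with more, 31 of 37 rose, with a median of 2.48. No test of these differences was made. The median R between gradients was 0.87 for the genes with less shared sequence and 0.68 for those with more.

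The replacement histone RNAs are described by gene. H3f3a, the more abundant of the pair of genes that encode H3.3, was at 180, 115, 101 and 162 TPM in the light fractions of gradient 1, at 397, 563, 727 and 660 TPM in the middle and at 574, 453, 458 and 445 TPM in the dense ones. In gradient 2 it was at 164, 85.0, 114 and 137 TPM, then 278, 340, 493 and 606 TPM, then 498, 402, 350 and 299 TPM. Light values were below all others, middle and dense values overlapped, and the peak was at fraction 14 in both gradients. It rose from light to middle by 1.91 ± 0.23 (limma adjusted p = 0.00217) and from light to dense by 1.73 ± 0.23 (adjusted p = 0.00152), which was the largest rise of the class in that comparison. H3f3b encodes the same protein and went from 114 to 253 and 193 TPM in gradient 1 and from 109 to 208 and 145 TPM in gradient 2. It rose by 1.06 ± 0.21 into the middle zone (limma adjusted p = 0.00954), and its rise of 0.64 ± 0.21 into the dense zone (adjusted p = 0.0386) passed in 24 of 37 alternatives (adjusted p from 0.00432 to 0.153).

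Of the H2A variants, H2afj rose most into the middle zone, from 11.7 to 59.0 TPM in gradient 1 and from 9.30 to 52.8 TPM in gradient 2 (2.35 ± 0.20, limma adjusted p = 0.0012), and it was at 27.3 and 23.8 TPM in the dense zone. H2afz, which encodes H2A.Z, went from 50.0 to 179 and 102 TPM and from 43.3 to 142 and 93.8 TPM, a rise of 1.79 ± 0.19 (limma adjusted p = 0.00181). With a Pearson's R of 0.96 in gradient 1 and 0.92 in gradient 2, its profile was close to the mean replication-type profile, as was that of H2afj, with 0.88 and 0.92. H2afv, the paralog of H2afz, sedimented otherwise. It was at 14.5, 23.9, 25 and 43.6 TPM in the light fractions of gradient 1, 68.5, 52.4, 33.8 and 24.5 TPM in the middle and 13.6, 14.0, 14.2 and 20.9 TPM in the dense ones, and at 18.8, 21.7, 24.7 and 44.1 TPM, 81.3, 64.3, 37.9 and 30.3 TPM and 19.7, 20.3, 17.2 and 13.6 TPM in gradient 2. Its peak was at fraction 9 in gradient 1 and 10 in gradient 2, its center was 10.6 and 10.8, and it was the only replacement RNA that fell from light to dense (-0.60 ± 0.18, limma adjusted p = 0.0299), a call that held in 26 of 37 alternatives (adjusted p from 0.0035 to 0.202). The reference transcripts of H2afz and H2afv share few words with any gene (0% and 0.437%).

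H2afy, which encodes the large variant macroH2A, was highest in the dense zone of both gradients. It was at 50.7, 39.0, 31.5 and 50.1 TPM in the light fractions, 66.7, 69.7, 72.8 and 87.0 TPM in the middle and 91.7, 91.3, 115 and 84.9 TPM in the dense fractions of gradient 1. In gradient 2 it was at 44.6, 48.1, 40.3 and 45.3 TPM, then 64.3, 72.7, 78.9 and 83.9 TPM, then 107, 114, 110 and 92.9 TPM. The zones did not overlap in gradient 2 and nearly separated in gradient 1, where 1 dense value, 84.9 TPM, lay below 1 middle value. H2afy rose from light to middle by 0.76 ± 0.15 (limma adjusted p = 0.00965), the smallest called rise of the class, and from light to dense by 1.19 ± 0.15 (adjusted p = 0.00133). From middle to dense it changed by 0.43 ± 0.15 (limma adjusted p = 0.085), which passed in 3 of 37 alternatives, the gradient as a block (0.0145) among them (adjusted p from 0.0145 to 0.318).

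The replacement linker histone H1f0, typical of resting and differentiated cells, changed less than H3f3a and H3f3b. It went from 229 to 404 and 327 TPM in gradient 1 and from 193 to 286 and 197 TPM in gradient 2, and its change into the middle zone was 0.70 ± 0.30 (limma adjusted p = 0.109). It passed with the gradient as a block (0.00891) and in no other of 37 alternatives (adjusted p from 0.00891 to 0.52). H2afx was at 8.82, 17.7 and 12.6 TPM and at 6.55, 9.45 and 8.92 TPM, with a change of 0.70 ± 0.35 (limma adjusted p = 0.149), and it likewise passed with the block alone (0.0113, range 0.0113 to 0.614). H1fx was at 1.47, 9.91 and 4.79 TPM and at 1.90, 5.75 and 2.33 TPM, and rose by 1.73 ± 0.36 (limma adjusted p = 0.0114). From light to dense, 5 of 9 replacement RNAs rose (H2afj, H2afy, H2afz, H3f3a and H3f3b) and 1 fell, with a median of 0.73, beside 22.3% of all genes that rose and 39.6% that fell. From middle to dense 3 fell (H2afj, H2afv and H2afz), with a median of -0.42, and none rose, beside 22.5% of all genes that fell and 4.79% that rose. Fewer of this class and fewer of all genes fell without the middle zone of either gradient or the dense zone of gradient 2, where that zone keeps a lone value. With the gradient as a block 5 fell, where 39.3% of all genes fell, in place of the 3 of the main fit. H2afv had the largest of these falls (-1.41 ± 0.18, limma adjusted p = 0.00714) and H2afz the smallest (-0.68 ± 0.19, adjusted p = 0.0483), which passed in 14 of 37 alternatives (adjusted p from 0.00416 to 0.258).

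The replication-type and replacement classes were then set side by side. The summed replacement level was 625, 1629 and 1261 TPM in the light, middle and dense zones of gradient 1 and 561, 1262 and 982 TPM in gradient 2, so the middle sum was highest in both classes. The median ratio of middle to light was 7.08 in gradient 1 and 5.65 in gradient 2 over the replication-type genes and 2.23 and 1.95 over the replacement genes. The median center was 12.4 and 13.1 for the former and 12.6 and 12.7 for the latter. The median pairwise R of profiles within a gradient was 0.69 and 0.62 among replication-type genes, 0.56 and 0.55 among replacement genes, and 0.58 and 0.62 between the classes, over 17 fractions of shared libraries. On the log2(TPM + 1) scale it was 0.65 and 0.69 among replication-type and 0.67 and 0.56 among replacement genes, so the order of the classes turned in gradient 1. Within H4 it was 0.94 and 0.90 on the linear scale. The difference between the classes was not tested.

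The levels of the replication-type RNAs also differed between the gradients. Over the 17 common fractions, 53 of 64 were higher in gradient 1, by a median ratio of 1.52. Of all genes tested 7906 of 11754 were higher in gradient 1, by a median ratio of 1.14, and of the replacement genes 7 of 9, by a median ratio of 1.20. By family the median ratio was highest for H1 (2.28) and H3 (2.13), was 1.56 for H4 and 1.24 for H2A, and was near even for H2B (1.05). Hist1h1d had a ratio of 4.14. As the tissue is bulk, more cells of a type and more RNA per cell cannot be told apart, and with 1 gradient on each side nothing can be tested.

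**Figure D5:**
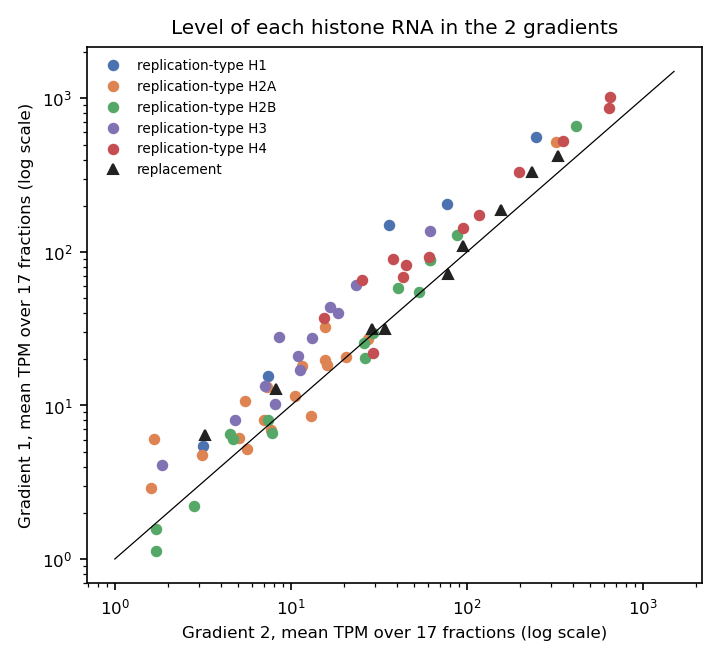
Mean TPM of each histone RNA over the 17 common fractions, with gradient 2 on the x axis and gradient 1 on the y axis, both on log scales. Points are genes colored by family, triangles are replacement genes and the line marks equal levels. Of the 64 replication-type genes 53 lie above the line, and the family medians are highest for H1 and H3 (ratios 2.28 and 2.13).

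RNAs of DNA synthesis and proliferation were read for the same difference as means over these 17 fractions. Of 20 such genes in both tables, 13 were higher and 7 lower in gradient 1, with a median ratio of 1.08, which is near the 7906 of 11754 and the 1.14 of all genes tested. Pcna, the sliding clamp of DNA polymerase, was at 62.9 TPM in gradient 1 and 61.5 TPM in gradient 2. Rrm2 and Cdt1 are among those with the widest gap and were picked for it. Rrm2, which limits the making of deoxynucleotides, was at 8.50 and 3.38 TPM, Cdt1, which licenses origins, at 11.1 and 3.76 TPM, and the helicase subunits Mcm7 and Mcm6 at 23.0 and 12.5 TPM and at 0.870 and 3.95 TPM. Top2a was at 0.805 and 0.820 TPM, and Mki67, Ccna2, Ccnb1 and Cdc6 were not among the genes in both tables. Of the 17 genes of this list tested, 7 rose and 2 fell from light to middle, 10 rose and 1 fell from light to dense, and 1 rose from middle to dense, which was Pcna (1.48 ± 0.16, limma adjusted p = 0.007). Over all genes 23.5% rose and 24.1% fell from light to middle, 22.3% rose and 39.6% fell from light to dense, and 4.79% rose from middle to dense. With the gradient as a block 12 of the 17 rose and 2 fell from light to middle, 14 rose and 1 fell from light to dense, and 10 rose from middle to dense, where 14.1% of all genes rose. Their median change from middle to dense was 0.58, where the replication-type histones had -1.0.

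The factors that process and destroy histone RNA were counted beside the same shares of all genes. Of 22 tested, 8 rose and none fell from light to middle (median 0.49), while 23.5% of all genes rose and 24.1% fell. From light to dense 8 rose and 5 fell (median -0.13), beside 22.3% and 39.6% of all genes. From middle to dense 2 rose and 6 fell (median -0.31), beside 4.79% and 22.5% of all genes. With the block the counts were 12 rises and 4 falls, 10 and 8, and 4 and 9. The shares of all genes with the block were 37.2% and 35.0%, 30.5% and 50.0%, and 14.1% and 39.3%. Slbp itself was at 13.6, 15.9 and 35.3 TPM across the zones of gradient 1 and 8.81, 12.8 and 27.3 TPM in gradient 2, and rose from middle to dense (1.09 ± 0.26, limma adjusted p = 0.0304). Upf1, the helicase that acts in histone RNA decay and the most abundant of the list, rose into the middle zone by 1.42 ± 0.26 (limma adjusted p = 0.00799) and into the dense zone by 2.13 ± 0.26 (adjusted p = 0.00127). Cpsf3, the nuclease that cuts the 3′ end, rose by 1.75 ± 0.16 (adjusted p = 0.00136) and 2.34 ± 0.16 (adjusted p = 0.000328). Lsm4 had the histone-like order, at 15.9, 57.2 and 22.6 TPM and at 14.9, 57.8 and 19.7 TPM, and fell from middle to dense (-1.39 ± 0.17, limma adjusted p = 0.00703). Of 21 histone chaperone RNAs, 9 rose and 1 fell from light to middle (median 0.80), 10 rose and 3 fell from light to dense (median 0.49), and 3 rose and 3 fell from middle to dense (median 0.20). With the block these became 13 and 3, 11 and 5, and 5 and 5, and the shares of all genes are those given above for each fit. Rbbp7, a histone-binding subunit of chromatin complexes, rose by 1.34 ± 0.15 into the middle zone, whereas Npm1, the most abundant, fell (-1.5 ± 0.26, limma adjusted p = 0.00625).

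Other short or unpolyadenylated RNAs were counted in the same way. Of all genes, 23.5% rose and 24.1% fell from light to middle, and 22.3% rose and 39.6% fell from light to dense. From middle to dense 4.79% rose and 22.5% fell, and with the block 14.1% rose and 39.3% fell. Of 81 cytosolic ribosomal protein RNAs, which are short polyadenylated messages, 73 fell and 4 rose from light to middle, with a median of -1.79 beside the 2.56 of replication-type histones, and 78 fell and 1 rose from light to dense (median -2.53). From middle to dense 37 fell and none rose, and 63 fell with the block. Of 77 small unpolyadenylated RNAs, 42 fell and 1 rose from light to middle (median -1.83), and 48 fell and none rose from light to dense (median -2.0). From middle to dense 7 of the 77 fell, or 11 with the block, in both fits a smaller share than over all genes. The most abundant of them, Rpph1, the RNA of ribonuclease P, fell by 5.20 ± 0.18 into the middle zone (change of -5.20, limma adjusted p = 0.000816). Of a list of 7 long noncoding RNAs, 5 are known as wholly or partly nuclear, and 2, Gas5 and Snhg1, are spliced snoRNA host transcripts that reach the cytoplasm, a split made after their values were seen. All of the first 5 fell from light to dense, 4 from light to middle and 2 from middle to dense, while Gas5 and Snhg1 fell in all 3 comparisons. Malat1 was at 271, 25.5 and 17.9 TPM in gradient 1 and 537, 43.6 and 23.0 TPM in gradient 2. Markers of other cell types were not highest where the histone RNAs were. The summed level of 7 Kupffer cell markers was 171, 60.1 and 60.8 TPM in the light, middle and dense zones of gradient 1 and 169, 68.4 and 78.8 TPM in gradient 2. The 3 erythroid markers listed, of 6, summed to 394, 302 and 89.0 TPM and to 300, 209 and 77.2 TPM. The lists for endothelial and stellate cells were also highest in the light zone, and those for cholangiocytes and lymphocytes stayed under 10 TPM in every library, with Epcam and Ms4a1 not listed. Neutrophil markers, with Mpo and Elane not listed, summed to at most 36.8 TPM. The part of these cells in the histone values was not tested.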

How the data were processed

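The authors removed ribosomal RNA from an equal mass of RNA per fraction, made strand-specific libraries, sequenced both ends, and estimated abundance with kallisto against RefSeq transcripts of mm10. The notes name bcl2fastq 2.16.0.10 for the reads and no version of kallisto, and how transcripts were summed to genes is not given in the sources used here. The deposited TPM values, 1 table per gradient with genes over 1 TPM in some fraction, were used as they are, and 0 value columns lacked a sample. TPM holds no counts, so no count model was used. The p-values rest on the spread of zone means between 2 gradients, pooled over the 3 zones and moderated over all genes tested. Without the block this spread also holds level differences between the gradients, so it is not the spread of a change between zones.

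From these values, log2(TPM + 1) was averaged over the 4 fractions of a zone and the 6 zone means were fitted with limma 3.58.1 in R 4.3.3, with a trend, over 11754 genes, using Benjamini-Hochberg adjustment. Members, zones and gene lists were chosen with earlier results of these data known. All members were accounted for, and the 8 most abundant of each class, the largest rise and fall called per comparison, calls against the direction of a class and the leading members of each list were named by rule. Hist1h3e, Hist1h1c, Hist1h1d, H1fx, Hist2h2aa2, Slbp, the smallest calls and the single S-phase genes other than Pcna were named after their values were seen. All zones of 1 gradient share a homogenate, which pairs them by gradient. Over 11754 genes, the departures from the zone averages correlated within gradients, with r = 0.665 for light and middle, 0.540 for light and dense and 0.798 for middle and dense, and a fit with the gradient as a block was an alternative. limma was tested on simulated zone means drawn without a shared gradient effect, so that test does not cover the pairing of zones by gradient.

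Transcripts, coordinates and sequences were taken from GENCODE release M21 on GRCm38, restricted to transcripts linked to RefSeq, which gave a transcript for 74 of 75 members. Alternatives were the block, a pseudocount of 0.1, no filter or a mean TPM of at least 10, TPM rescaled after removal of the top 50 genes, quantile normalization, narrower zones, and leaving out a gradient, a zone mean or a library. Python 3.11.15, NumPy 2.4.6, pandas 2.3.3 and Matplotlib 3.10.9 were used. Protein sequences, isoforms and protein abundance were not analysed here.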

Additional observations from a re-analysis of the deposited data

How the results depend on the processing

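Of the 6 counts of called histone RNAs, those from light to middle and from light to dense stayed within 1.5 times under every alternative that kept both gradients in each zone. With the gradient as a replicate block, which pairs the zones, the 19 replication-type falls from middle to dense became 48 of 64. The 3 replacement falls became 5, no called member was lost, and 39.3% of all genes fell. After quantile normalization the 19 became 9 of 64, while 1607 of all 11754 genes fell. With 1 library or zone mean left out, the counts ran from 32 to 58 (replication-type) and 3 to 7 (replacement) for rises from light to middle, from 20 to 41 and 4 to 6 for rises from light to dense, and from 0 to 27 and 0 to 3 for falls from middle to dense. Where a zone mean is left out, the lone one is taken to vary like the others. The lowest replication-type counts of all 3 comparisons came from such fits, as did the lowest replacement counts from light to middle and from middle to dense. Fewer of all genes were called in those fits too. These low ends therefore cannot be read as a property of the histone RNAs alone. Leaving out a whole gradient leaves no spread, so it gave values only: median changes of replication-type RNAs of 2.38 and 2.71 from light to middle. The center of sedimentation over all 22 fractions of gradient 2 had a median of 14.1 for replication-type and 13.7 for replacement RNAs, against 13.1 and 12.7 over 17 fractions of the same gradient and 12.8 and 12.6 as the mean of both gradients. The median pairwise R of replacement profiles, averaged over the gradients, was 0.61 on the log2(TPM + 1) scale (0.67 and 0.56) and 0.56 on the linear one, and that of replication-type profiles 0.67 (0.65 and 0.69) and 0.65. No median change of either class and no called change of a named gene reversed. TPM keeps no depth, so what depth limits cannot be given.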
